A study of Mus musculus with 8 samples.

Results

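The unfolded protein response (UPR) and the chaperones of the endoplasmic reticulum (ER) are represented here by 10 genes, *Hspa5*, *Hsp90b1*, *Xbp1*, *Ern1*, *Atf6*, *Pdia4*, *Dnajb9*, *Herpud1*, *Sdf2l1* and *Calr*. They were taken by gene symbol from 24059 symbols counted in resting bone marrow–derived mast cells (BMMCs). All 10 had enough reads to enter the test, together with 14934 genes in all. BMMCs arise when bone marrow, here of young adult C57BL/6 mice, is kept in medium with IL-3, in this case for at least 4 weeks. The cells were electroporated with Cas9-gRNA ribonucleoproteins (RNPs). In 4 samples the guide was scrambled and the cells are labelled *Zc3h12a* WT, and in 4 samples the guides targeted *Zc3h12a*, the gene of the endoribonuclease Regnase-1, and the cells are labelled *Zc3h12a* KO. RNA was taken 1 week later from the whole cell population, with no further treatment in either group. The share of edited alleles in these samples is not given in the sources used here. Samples are numbered as replicates 1 to 4 in each group, and a Scrambled RNP sample and a *Zc3h12a* RNP sample of the same number were compared as a pair.

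When proteins that enter the ER fold slowly, unfolded chains draw the chaperone BiP away from the sensors IRE1, ATF6 and PERK in the ER membrane. IRE1 then removes an intron from the *Xbp1* mRNA so that it encodes an active transcription factor, ATF6 is cut in the Golgi to release another, and PERK slows translation and raises ATF4; the factors raise the mRNAs of chaperones and of proteins that take misfolded chains out of the ER for degradation. Mast cells make large amounts of granule proteases, surface receptors and secreted cytokines through the ER. In the list described here, *Ern1* encodes IRE1, *Atf6* and *Xbp1* encode sensor and factor, *Hspa5* (BiP), *Hsp90b1* (GRP94), *Calr* (calreticulin) and *Pdia4* (a disulfide isomerase) encode chaperones and folding enzymes, *Dnajb9* (ERdj4) and *Sdf2l1* encode cofactors of BiP, and *Herpud1* encodes a membrane protein of ER-associated degradation.

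The sequences through which these genes are known to answer ER stress are shown first. They mark which of the promoters searched carry the classical element in the letters searched. The ER stress element (ERSE) was searched as CCAAT and CCACG with 9 free bases between them, on both strands, in RefSeq promoters that run from 250 bases before to 50 bases after the start site. The shorter ERSE-II was searched as ATTGG and CCACG with 1 free base between them. The promoter table, of build GRCm38.p6, held 9 of the 10 genes, and each of these promoters occurred exactly once in GRCm39. It did not hold *Atf6*, whose promoter was not searched. The windows below have GRCm39 coordinates and are written 5′ to 3′ on the strand that carries the letters searched, with the fixed parts of the element in capitals.
*Hspa5* ERSE, plus strand, chr2:34662033-34662059: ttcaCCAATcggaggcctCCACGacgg
*Hsp90b1* distal ERSE, minus strand, chr10:86541498-86541524: aagcCCAATcgcaaggagCCACGcttc
*Hsp90b1* proximal ERSE, plus strand, chr10:86541393-86541419: ctcaCCAATcgtgcctcaCCACGcact
*Calr* ERSE, plus strand, chr8:85573700-85573726: tgggCCAATgagggtcgaCCACGcgtt
*Herpud1* ERSE-II, plus strand, chr8:95113001-95113019: gctgATTGGgCCACGttgg
*Pdia4* ERSE with 1 base of the second part changed, plus strand, chr6:47790532-47790558: accaCCAATcacgggctgCCACTcggt

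An ERSE stood in 3 of the 9 promoters, those of *Hspa5*, *Hsp90b1* and *Calr*, and in 39 of all 32851 promoters of the table, or 0.119%. The ERSE-II stood in that of *Herpud1* and in 12 promoters, or 0.0365%. *Hsp90b1* held 2 copies, from -212 to -194 and from -107 to -89 bases of its start site, whereas *Hspa5* held its copy from -65 to -47, *Calr* from -162 to -144 and *Herpud1* from -52 to -42. With 1 mismatch allowed in the second part, which takes in 0.998% of promoters, *Pdia4* and *Herpud1* were added. The UPR element, searched as TGACG followed directly by TGG, was in 0.676% of promoters and in none of the 9. *Xbp1*, *Ern1*, *Dnajb9* and *Sdf2l1* held none of these letters in the window searched. In GENCODE's annotation of GRCm39 the *Hspa5* element and the proximal *Hsp90b1* element lie within an exon of their own gene, the distal *Hsp90b1* element lies in an exon of the neighbouring gene *Ttc41*, the *Herpud1* element lies within the antisense gene *Gm15890* outside its exons, and the *Calr* and *Pdia4* elements lie in no gene.

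The libraries held 19610240 to 33986762 counts, of which the 10 genes took 0.361% to 0.608%, with 685 to 61230 counts per gene and sample, so that counting error was small beside the spread between samples. The targeted mRNA, *Zc3h12a*, was at 24.9, 38.0, 37.1 and 39.3 CPM (counts scaled to the TMM-normalized library size) in Scrambled RNP replicates 1 to 4 and at 26.8, 41.1, 32.2 and 32.6 CPM in *Zc3h12a* RNP replicates 1 to 4. Its groups overlapped, so the level of this mRNA does not check the labels. All 9 mast cell markers were counted in every sample, with a summed level of 51065 to 60923 CPM after Scrambled RNP and 49227 to 52176 CPM after *Zc3h12a* RNP. The 9 markers of B cells and plasma cells, the latter known for a very large ER, summed to 4.73 to 18.1 CPM and 4.33 to 7.98 CPM, with *Jchain* at 0 to 6 counts and *Mzb1* at 0 to 1 count per sample. The fitted log2 fold change was below 0 for 9 of the 9 mast cell markers, with *Hdc* at -0.75 and *Tpsb2* at -0.28. It was below 0 for 6299 of all 14934 genes tested and for 2960 of the 5257 with a mean log2 CPM above 5. Of the 9 markers, 0 were called by edgeR's quasi-likelihood test. Of the 4 B cell and plasma cell markers tested, *Ighm* was at -1.24 and *Pax5*, *Prdm1* and *Sdc1* were at 0.57, 0.44 and 0.34, also with 0 called. Their part in the results below was not tested. The macrophage markers summed to 12.2 to 18.6 CPM and 14.6 to 17.9 CPM, and the neutrophil markers to at most 0.333 CPM. The basophil markers summed to 501 to 541 CPM and 445 to 511 CPM, nearly all of it *Cd200r3*. Their *Mcpt8* had means of 4.08 CPM after Scrambled RNP and 5.10 CPM after *Zc3h12a* RNP, and their *Prss34* 1.44 and 1.37 CPM.

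The first comparison asked whether the RNP against *Zc3h12a* changed the mRNA of any of these genes. None of the 10 was called higher or lower. The fitted log2 fold changes (*Zc3h12a* RNP minus Scrambled RNP) lay between -0.086 for *Xbp1* and 0.16 for *Sdf2l1*, 5 above and 5 below 0, and the 2 groups overlapped for all 10 genes. In the model blocked on the replicate number, their 95% intervals reached from -0.32 to 0.48 at the widest. For each of the 10 a change of 0.5 on the log2 scale in either direction thus lay outside the interval of that model. Intervals without the block were not computed. The lowest unadjusted p was 0.234 and the adjusted p ran from 0.960 to 0.990 by edgeR's quasi-likelihood test in a model blocked on the replicate number, with Benjamini-Hochberg adjustment over all genes tested. In a mixed cell population, fewer cells of a type and less RNA per cell cannot be told apart.

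The background for these counts is a comparison in which few genes were called. Calls needed an adjusted p at or under 0.05 together with a log2 fold change beyond 0.5, and this rule called 0.0% of all genes tested higher and 0.0% lower. DESeq2 called 8 genes higher and 52 lower and limma-trend called 0 and 1, with 0 of the 10 genes among them in either tool. At an unadjusted p at or under 0.05 stood 6.17% of all genes and 0 of the 10. All 4 pairs were higher for 4.98% and lower for 8.54% of all genes, and again for 0 of the 10. The 95% interval lay within 0.5 on both sides of 0 for 51.4% of all genes and for 10 of the 10. Much of that last difference goes with level, since among the 5257 genes with a mean log2 CPM above 5, where the 10 genes lie, the share was 91.6%. The median log2 fold change of the 10 genes was -0.0035, against 0.038 for all genes and -0.018 for those above a log2 CPM of 5.

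**Figure D1:**
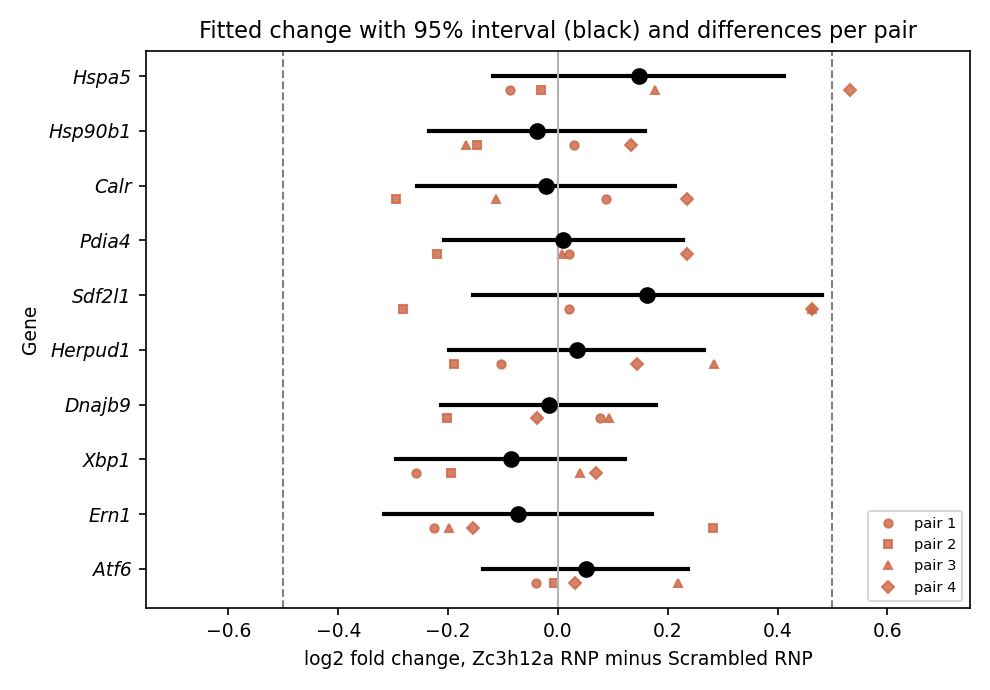
Fitted log2 fold change of each gene, *Zc3h12a* RNP minus Scrambled RNP (x axis), with its 95% interval in black and the difference of each of the 4 pairs as coloured symbols below it; dashed lines stand at -0.5 and 0.5. All 10 intervals cross 0 and lie within the dashed lines, and pair 4 of *Hspa5*, at 0.53, is the one pair beyond them.

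*Hspa5* encodes BiP, the Hsp70 chaperone of the ER and the gene used most often to read ER stress. Its level in Scrambled RNP replicates 1 to 4 was 877, 1133, 1301 and 695 CPM, and in *Zc3h12a* RNP replicates 1 to 4 it was 825, 1109, 1471 and 1005 CPM. Replicate 3 was highest in both groups, and Scrambled RNP replicate 4 was lowest. The means were 1002 ± 269 and 1103 ± 272 CPM (SD, n = 4 each), and the log2 fold change was 0.15 (SE 0.11, 95% interval -0.12 to 0.41). Pairs 1 to 4 differed by -0.09, -0.03, 0.18 and 0.53, and without replicate 4 the log2 fold change was 0.020. In GENCODE, 44.2% of the exon bases of *Hspa5* are shared with *Rabepk* on the opposite strand, and the strand setting of the counting is not given in the sources used here. *Rabepk* was counted at 12.6 and 12.5 CPM in the groups, so reads given to it were few beside those of *Hspa5*. Any reads over the shared bases that were given to neither gene would not appear in these counts.

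*Hsp90b1* encodes GRP94, the ER member of the Hsp90 family, and *Calr* encodes calreticulin, which binds the sugar chains of new glycoproteins and stores calcium. *Hsp90b1* was at 1033, 1241, 1447 and 813 CPM in Scrambled RNP replicates 1 to 4 and at 1055, 1121, 1288 and 892 CPM in *Zc3h12a* RNP replicates 1 to 4. *Calr* was at 1687, 1969, 2411 and 1112 CPM and at 1793, 1605, 2230 and 1308 CPM in the same order. Both genes were highest in replicate 3 and lowest in replicate 4 of either group, and in both the 4 *Zc3h12a* RNP samples lay inside the range of the Scrambled RNP samples. The log2 fold changes were -0.038 (SE 0.084, 95% interval -0.23 to 0.16) for *Hsp90b1* and -0.021 (SE 0.10, 95% interval -0.26 to 0.21) for *Calr*. The ratio of *Calr* to *Hsp90b1* in CPM stayed between 1.37 and 1.73 in the 8 samples.

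*Pdia4* encodes a protein disulfide isomerase, and *Sdf2l1* encodes a small ER protein that works with BiP and its J-domain partners. *Pdia4* was at 178, 195, 210 and 150 CPM in Scrambled RNP replicates 1 to 4 and at 180, 167, 211 and 176 CPM in *Zc3h12a* RNP replicates 1 to 4. *Sdf2l1* was at 62.7, 75.9, 63.7 and 32.6 CPM and at 63.6, 62.4, 87.9 and 44.9 CPM. The lowest sample of both genes was Scrambled RNP replicate 4 and the highest was *Zc3h12a* RNP replicate 3. *Sdf2l1* had the largest fitted value of the 10 genes, 0.16, and also the widest interval, -0.16 to 0.48 (SE 0.14), with pairs at 0.02, -0.28, 0.46 and 0.46. Leaving out a replicate number moved it between 0.0085, without replicate 3, and 0.37, without replicate 2. *Pdia4* had the smallest in size, 0.010 (SE 0.093, 95% interval -0.21 to 0.23), and its sign changed with the normalization. Without replicate 2, the unadjusted p of *Sdf2l1* was 0.0267 and its adjusted p 0.612 by edgeR's quasi-likelihood test with Benjamini-Hochberg adjustment, the lowest adjusted p that any of the 10 genes had in 10 other settings.

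*Dnajb9* encodes ERdj4, a J-domain cofactor that brings BiP to IRE1 and to misfolded proteins, and is a target of XBP1. It was at 31.3, 53.1, 100.5 and 94.6 CPM in Scrambled RNP replicates 1 to 4 and at 33.0, 46.2, 107 and 92.2 CPM in *Zc3h12a* RNP replicates 1 to 4. Samples of the same number were close to each other, while replicates 3 and 4 were high, replicate 2 lower and replicate 1 lowest in both groups. The log2 fold change was -0.017 (SE 0.084, 95% interval -0.21 to 0.18). The mean of the highest replicate number was 3.23 times that of the lowest, the widest ratio among the 10 genes, where the others had 1.28 to 1.96.

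*Herpud1* encodes a ubiquitin-like membrane protein that assembles the complex for ER-associated degradation. It was at 117, 155, 131 and 126 CPM in Scrambled RNP replicates 1 to 4 and at 109, 136, 159 and 139 CPM in *Zc3h12a* RNP replicates 1 to 4. Its levels were the closest to each other between replicate numbers among the 10 genes, and the groups overlapped. The log2 fold change was 0.034 (SE 0.10, 95% interval -0.20 to 0.27).

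*Ern1* encodes IRE1, the kinase and endoribonuclease that splices *Xbp1*, and *Xbp1* encodes the factor made from the spliced mRNA. *Xbp1* was at 351, 312, 250 and 231 CPM in Scrambled RNP replicates 1 to 4 and at 293, 272, 257 and 243 CPM in *Zc3h12a* RNP replicates 1 to 4. *Ern1* was at 74.1, 62.9, 47.7 and 49.1 CPM and at 63.4, 76.5, 41.6 and 44.1 CPM. Both genes were higher in replicates 1 and 2 than in replicates 3 and 4 of either group, the reverse of *Dnajb9*. The log2 fold changes were -0.086 (SE 0.090, 95% interval -0.29 to 0.12) for *Xbp1* and -0.073 (SE 0.10, 95% interval -0.32 to 0.17) for *Ern1*. Counts per gene do not separate the spliced from the unspliced *Xbp1* mRNA, so the activity of IRE1 was not measured. In GENCODE, 22.0% of the exon bases of *Xbp1* are shared with *Ccdc117* on the opposite strand, which was counted at 34.6 and 29.4 CPM in the groups.

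*Atf6* encodes the sensor that is cut in the Golgi. It was at 74.4, 105, 62.4 and 65.6 CPM in Scrambled RNP replicates 1 to 4 and at 72.3, 105, 72.6 and 67.0 CPM in *Zc3h12a* RNP replicates 1 to 4. Replicate 2 stood above all other samples in both groups, which otherwise lay close together. The log2 fold change was 0.050 (SE 0.080, 95% interval -0.14 to 0.24).

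**Figure D2:**
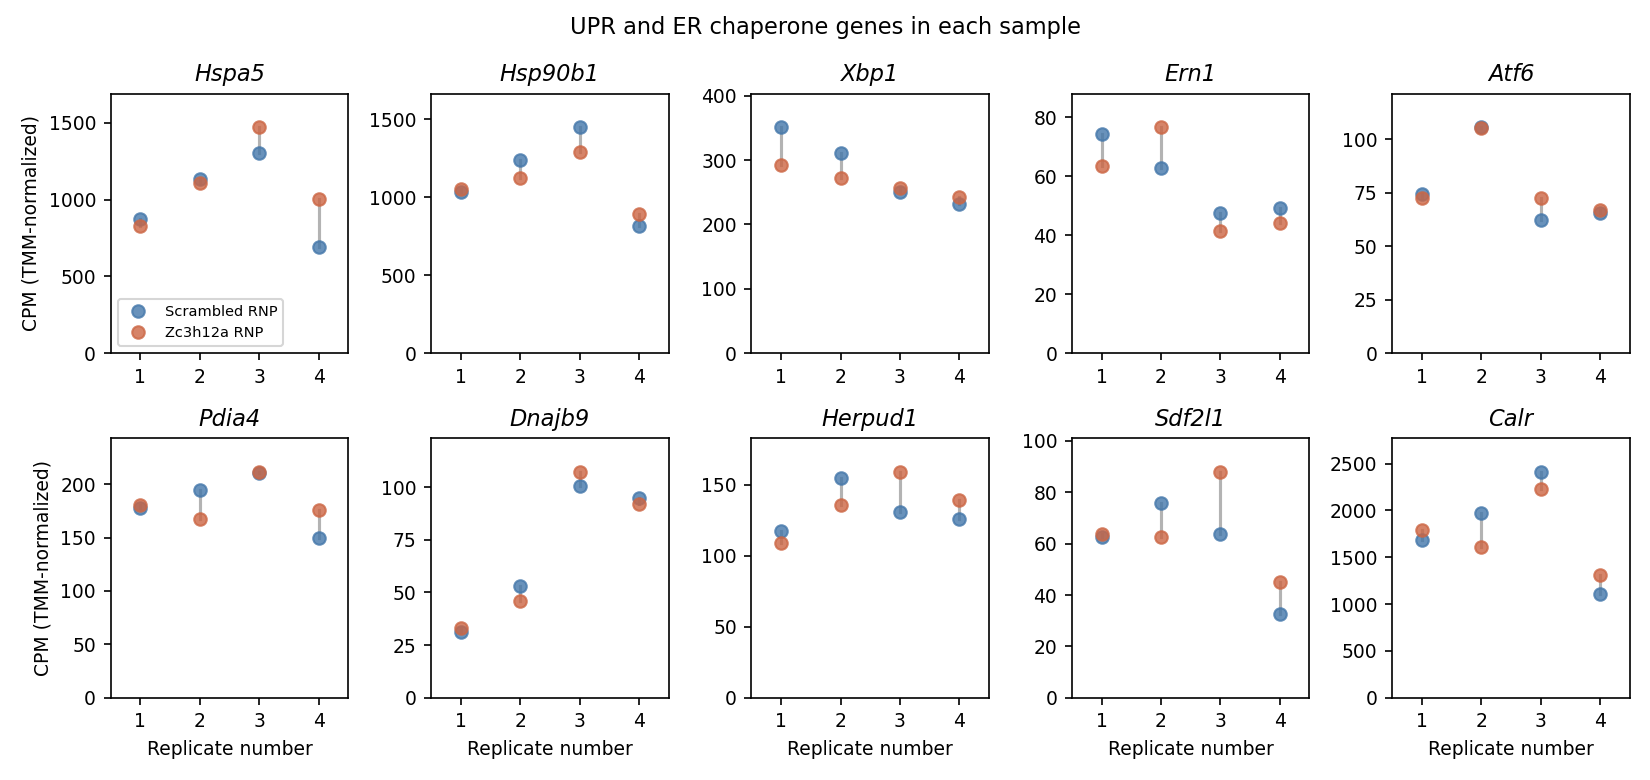
Level of each of the 10 genes in TMM-normalized CPM (y axis, from 0) by replicate number (x axis) in Scrambled RNP (blue) and *Zc3h12a* RNP (orange) samples; a grey line joins the samples of a pair. The colours overlap in every panel, and samples of a number lie close to each other for *Dnajb9*, at 31.3 and 33.0 CPM in replicate 1, but apart for *Hspa5* in replicate 4, at 695 and 1005 CPM.

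The levels of the genes relative to each other were compared in CPM per kilobase of exon, since longer mRNAs give more reads. *Calr* was highest at 463 ± 115 CPM per kilobase (SD over the 8 samples), at or above 99.7% of the 14327 tested genes with a known length. *Hspa5* at 189 ± 46.1 and *Hsp90b1* at 182 ± 34.3 CPM per kilobase followed, and *Hspa5* was above *Hsp90b1* in only 4 of the 8 samples, so this pair had no stable order. *Sdf2l1* was at 55.4 ± 15.3, *Xbp1* at 39.8 ± 5.79, *Herpud1* at 34.6 ± 4.41 and *Pdia4* at 25.6 ± 2.95 CPM per kilobase. *Sdf2l1* was above *Xbp1* in 7 of 8 samples and *Xbp1* above *Herpud1* in 6 of 8, neighbours whose spreads overlap. *Dnajb9* at 16.7 ± 7.66 CPM per kilobase was under *Pdia4* in 7 of 8 samples and above *Atf6*, at 7.97 ± 1.75, in 7 of 8. *Ern1* was lowest at 5.69 ± 1.35 CPM per kilobase, under *Atf6* in all 8 samples. The mRNAs of the ER's abundant chaperones were thus far above those of the sensors. With the longest transcript as the length, *Hsp90b1* passed *Hspa5* (341 against 211 CPM per kilobase) and *Xbp1* passed *Sdf2l1* (69.7 against 55.4).

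**Figure D3:**
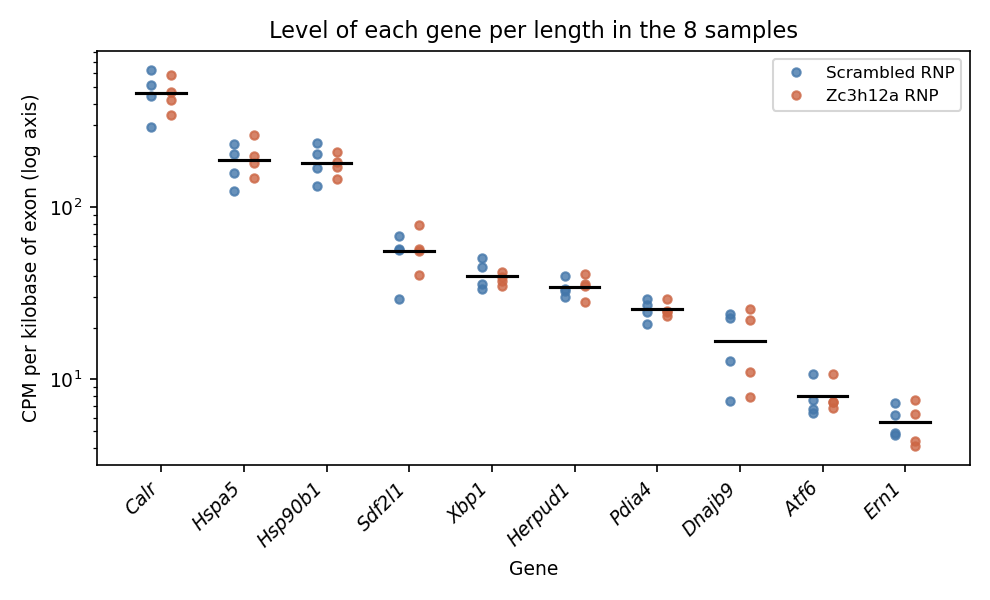
Level of each gene in CPM per kilobase of exon (y axis, log scale), ordered by its mean over 8 samples (black line), with Scrambled RNP samples in blue and *Zc3h12a* RNP samples in orange. The means run from 463 CPM per kilobase for *Calr* to 5.69 for *Ern1*, and the colours overlap for every gene.

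The replicate number, in place of the RNP, went with most of the variation of these genes. The share of the variance of log2 CPM that lay between replicate numbers was 68.8% for *Herpud1* to 99.3% for *Dnajb9*, with a median of 85.0%, while the RNP took at most 5.15%, with a median of 0.913%. All genes tested had medians of 69.7% and 4.37%, and those above a log2 CPM of 5 had 82.5% and 3.01%, so the 10 genes differed little in this from other genes at their level. A test of the replicate number, chosen after the values were seen, passed an adjusted p of 0.05 in 28.0% of all genes, in 47.4% of those above a log2 CPM of 5 and in 7 of the 10. By edgeR's quasi-likelihood test with Benjamini-Hochberg adjustment, the adjusted p was 0.00102 for *Dnajb9*, 0.0112 for *Atf6*, 0.0136 for *Calr*, 0.0202 for *Hsp90b1*, 0.0214 for *Ern1*, 0.0297 for *Hspa5* and 0.0299 for *Sdf2l1*. It was 0.0975 for *Xbp1*, 0.233 for *Pdia4* and 0.238 for *Herpud1*. The count rested on the settings, with 2 of the 10 (*Ern1* and *Dnajb9*) under RLE size factors, 1 without replicate 1, 5 without replicate 2, 1 without replicate 3 and 4 without replicate 4. The share of all genes tested fell in the same settings, to 15.8%, 9.62%, 16.1%, 9.97% and 19.3% in that order. *Dnajb9* passed in each of these and, with adjusted p-values up to 0.0239 over the 6 other settings run, differed between replicate numbers in all of them by edgeR's or limma's test with Benjamini-Hochberg adjustment. What a replicate number stands for is not stated in the labels, so animal, culture and day of preparation cannot be told apart.

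**Figure D4:**
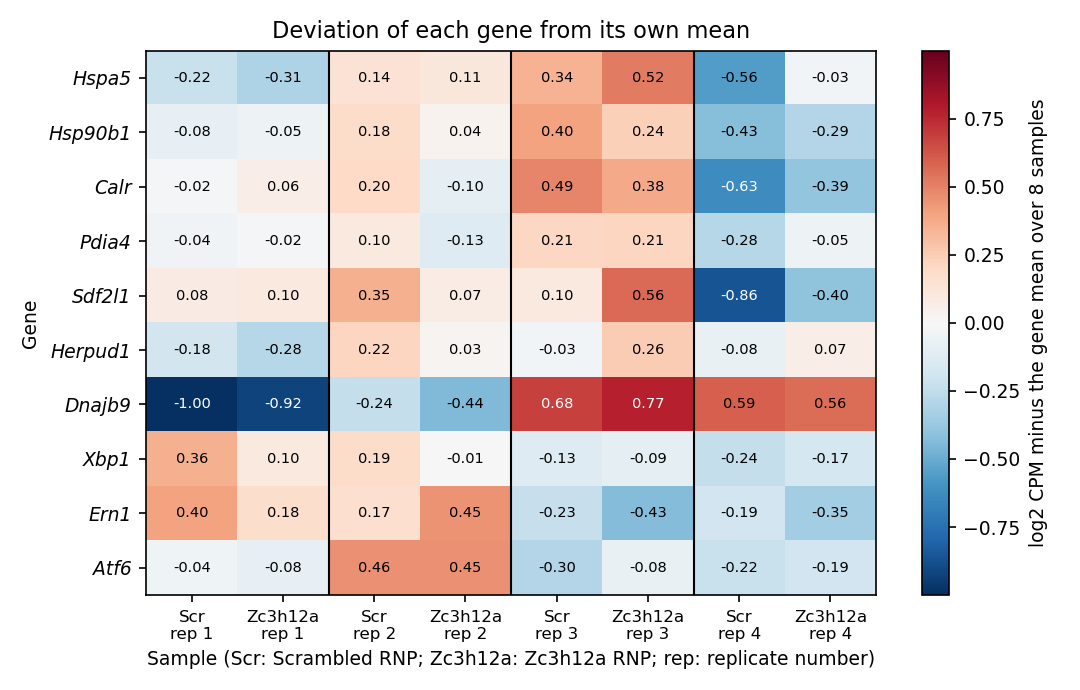
Log2 CPM of each gene (rows) in each sample (columns, ordered by replicate number, with Scr for Scrambled RNP and Zc3h12a for *Zc3h12a* RNP) minus the mean of the gene over the 8 samples; red is above the mean and blue below. *Dnajb9* runs from -0.999 in Scrambled RNP replicate 1 to 0.77 in *Zc3h12a* RNP replicate 3.

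Across the 8 samples the genes fell into sets that varied together, given here as a description with no test, since the samples share their normalization and come in 4 pairs. The 5 genes *Hspa5*, *Hsp90b1*, *Calr*, *Pdia4* and *Sdf2l1*, grouped after their values were seen, had Pearson correlations of log2 CPM from 0.754 to 0.971 over their 10 pairs, highest between *Hsp90b1* and *Calr*. The other 35 of the 45 pairs lay between -0.905 and 0.753. *Xbp1* and *Ern1* had 0.753 with each other, while *Dnajb9* had -0.849 with *Xbp1*, -0.905 with *Ern1* and 0.389 with *Hspa5*. The value for *Dnajb9* with *Hspa5*, the gene of the chaperone it serves, was thus lower than those within the set of 5. Both genes were still highest in replicate 3 of either group. The ratio of *Dnajb9* to *Hspa5* in CPM ran from 0.0357 in Scrambled RNP replicate 1 to 0.136 in Scrambled RNP replicate 4. The ratio of *Dnajb9* to *Xbp1* ran from 0.0893 to 0.417. The 3 genes with an ERSE printed above, *Hspa5*, *Hsp90b1* and *Calr*, were in the set of 5. So were *Pdia4*, whose copy had 1 base changed, and *Sdf2l1*, which had none in its window. A link between the element and the set was not tested. *Herpud1*, with its ERSE-II, was outside that set, with 0.717 for *Hspa5*, 0.443 for *Pdia4*, 0.382 for *Sdf2l1*, 0.374 for *Hsp90b1* and 0.274 for *Calr*. Its 0.717 with *Hspa5* was close to the lowest value within the set, 0.754.

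Extremes fell mostly on replicates 3 and 4. Scrambled RNP replicate 4, which was also the library with the fewest counts, was the lowest of the 8 samples for 6 of the 10 genes (*Hspa5*, *Hsp90b1*, *Xbp1*, *Pdia4*, *Sdf2l1* and *Calr*), with a summed level of 3369 CPM. *Zc3h12a* RNP replicate 4, with 28564062 counts, was lowest for 0 genes, and its sum of 4011 CPM was the second lowest. *Zc3h12a* RNP replicate 3 was highest for 5 genes (*Hspa5*, *Pdia4*, *Dnajb9*, *Herpud1* and *Sdf2l1*), with a sum of 5926 CPM, and Scrambled RNP replicate 3 had 6025 CPM. The part of library depth in these values was not tested. In pair 2, 9 of the 10 genes were lower after *Zc3h12a* RNP, against 48.8% of all genes and 73.8% of those above a log2 CPM of 5. In pair 4, 8 of the 10 were higher, against 44.3% of all genes and 63.3% of those above a log2 CPM of 5. The pairs thus went opposite ways, with medians of -0.01, -0.19, 0.07 and 0.14 over the 10 genes in pairs 1 to 4, and genes at the same level leaned the same way in pairs 2 and 4, with medians of -0.11 and 0.08.

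By the rule for likeness, the genes outside the 10 whose log2 CPM followed the mean standardized level of the 10 most closely over the 8 samples included *Cstb* (r = 0.982), *Magoh* (0.981), *Tbcb* (0.981) and *Lamtor4* (0.976), among 9658 candidates. Of the first 20, 0 belonged to the lists of ER and stress genes below, which hold only 110 of the candidates. Taken one by one, *Hspa5* had its highest correlation with the cytosolic chaperone gene *Hsp90aa1* (0.973), and *Dnajb9* had *Dnajb1*, the cytosolic J-domain cofactor, among its first 5 (0.975); both were singled out after the values were seen. In further examples chosen after the values were seen, *Calr* and *Hsp90b1* each had a correlation above 0.8 with 7 of 14 listed chaperones of the cytosol and mitochondria, against 5.92% and 5.49% of 9667 genes. *Sdf2l1* had one above 0.8 with 15 of 28 genes of translocation and secretion and 11 of 23 of ER folding, against 10.8% of genes. In the same 2 lists *Xbp1* had 5 of 28 and 3 of 23, against 6.40% of genes. *Calr* had 3 of 28 and 7 of 23, *Hsp90b1* 2 of 28 and 6 of 23, and *Pdia4* 3 of 28 and 4 of 23. The shares of all genes for these were 5.92%, 5.49% and 3.57%. *Hspa5* and *Dnajb9* each had 0 of 28 and 1 of 23, against 2.27% and 2.37% of genes. *Ern1*, *Atf6* and *Herpud1* had 0 in both lists, against 8.22%, 15.1% and 0.424% of genes. With genes of ER-associated degradation, *Atf6* had 6 of 19 above 0.8.

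The other genes of the pathway were described by 7 lists, in which 117 of 124 genes could be tested. None was called, and 2 were higher and 8 lower at an unadjusted p at or under 0.05, which is 8.55% of them against 6.17% of all genes and 9.89% of genes above a log2 CPM of 5. The median log2 fold change of the 23 genes of ER folding and quality control was 0.014, and their lowest p belonged to *Sdf4*, a calcium-binding protein that resides in the Golgi. *Sdf4* was at 692, 718, 644 and 550 CPM in Scrambled RNP replicates 1 to 4 and at 577, 588, 513 and 424 CPM in *Zc3h12a* RNP replicates 1 to 4. All 4 pairs were lower. The log2 fold change was -0.31 (SE 0.074) and the adjusted p 0.449 by edgeR's quasi-likelihood test with Benjamini-Hochberg adjustment, so it was not called. *Fkbp2*, a prolyl isomerase of the ER, was at -0.23, and *Mogs* and *Uggt1*, which trim and recheck sugar chains, were at 0.18 and 0.12.

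Degradation genes, 19 of 20 tested, had a median of 0.010. *Selenos*, a selenoprotein of the degradation complex, was at -0.23 and lower in 4 of 4 pairs, *Erlec1* and *Os9*, lectins that hand over misfolded glycoproteins, were at -0.18 and -0.22, and *Vcp*, the ATPase that pulls them out, was at 0.15. Translocation and secretion genes, all 30 tested, had a median of 0.017. *Sec62*, a subunit of the translocation machinery, was at 133, 129, 160 and 136 CPM in Scrambled RNP replicates 1 to 4 and at 116, 107, 125 and 112 CPM in *Zc3h12a* RNP replicates 1 to 4. It had a log2 fold change of -0.28 (SE 0.074) and an adjusted p of 0.543 by edgeR's quasi-likelihood test with Benjamini-Hochberg adjustment. *Srp14* and *Srp9*, which form the Alu domain of the signal recognition particle, were at -0.22 and -0.18, and *Lman1*, a cargo receptor for export from the ER, was at 0.20.

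The other sensors, proteases and factors, 14 of 15 tested, had a median of -0.028 and 0 genes at an unadjusted p at or under 0.05. *Eif2ak3*, which encodes PERK, was at 0.012 (SE 0.087), *Atf4* at -0.057 (SE 0.092) and *Ddit3*, which encodes CHOP, at -0.017 (SE 0.12). *Atf6b*, the paralog of *Atf6*, was at 0.16, the NF-Y subunits *Nfyb* and *Nfyc*, which bind the CCAAT box of the element, were at -0.089 and -0.076, and *Creb3* was at 0.095. The targets of ATF4 and CHOP, 12 of 14 tested, had the median farthest from 0, at 0.17, and it was 0.029 without replicate 4. Their named genes went both ways, with *Asns*, asparagine synthetase, at 0.42 and *Sesn2* at 0.17, and *Ddit4* at -0.33 and *Nupr1* at -0.29. *Asns* differed by 0.27, -0.13, 0.47 and 1.09 in pairs 1 to 4. Without replicate 2 it was called, with a log2 fold change of 0.65 and an adjusted p of 0.0254 by edgeR's quasi-likelihood test with Benjamini-Hochberg adjustment, in a setting that also called 80 genes higher and 57 lower.

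Transcripts known to be cut by IRE1 itself, 4 of 6 tested, had a median of 0.023, with *Tapbp* at 0.078, *Bloc1s1* at 0.055, *Hgsnat* at -0.0089 and *Pdgfrb* at -0.024. Chaperones of the cytosol and mitochondria, 15 of 16 tested, had a median of 0.0054. *Hsph1*, a cytosolic Hsp110, was at 0.26 (SE 0.092) and higher in 4 of 4 pairs, *Dnaja1* was at -0.17 and lower in 4 of 4 pairs, and *Trap1* and *Hspe1* of the mitochondria were at 0.18 and -0.14.

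**Figure D5:**
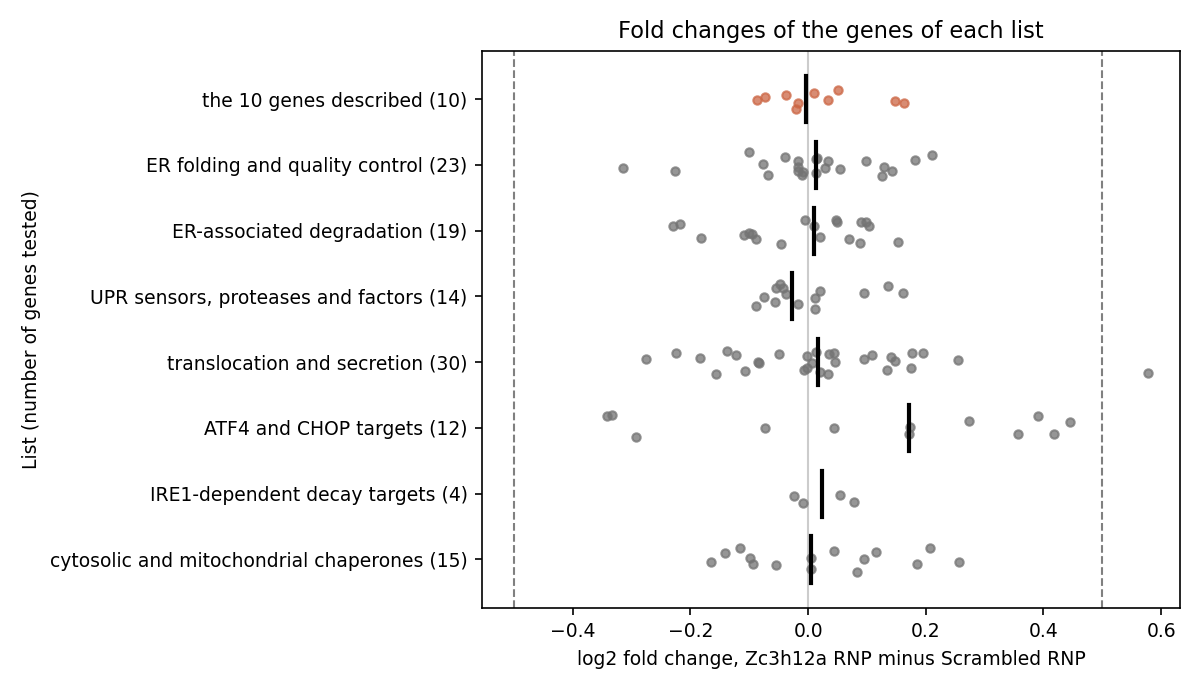
Fitted log2 fold change of each tested gene, *Zc3h12a* RNP minus Scrambled RNP (x axis), in the 10 genes described (orange) and 7 lists of related genes (grey), with the median of each list as a black line and dashed lines at -0.5 and 0.5; points are spread vertically so that they can be seen. The medians of 6 of the 7 lists lie between -0.028 and 0.023 and that of the ATF4 and CHOP targets at 0.17, and 0 of the genes drawn were called.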

How the data were processed

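RNA-seq of poly(A)-selected RNA was analyzed in 8 BMMC samples, 4 per RNP. The authors aligned reads with HISAT2 2.2.1 to GRCm39 and counted them per gene with featureCounts 2.0.1, and deposited these raw counts; FastQC 0.11.9 is also named in the submitters' processing notes. The methods name a batch correction, which the deposited whole-number counts do not carry. Strand and multimapping settings are not given in the sources used here.

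Genes passing edgeR's low-count filter (14934; 9125 did not) were TMM-normalized and tested with edgeR 4.0.16 in R 4.3.3 (quasi-likelihood, replicate number as block). Standard errors were obtained from the log2 fold change and the F statistic. Pair differences use log2 CPM with a prior count of 2. DESeq2 1.42.0 and limma 3.58.1 were alternatives, with no block, RLE size factors, no filter, at least 10 counts in every sample, leaving out each replicate, and the longest transcript as length. The tests of replicate numbers and their alternatives were added after the data were seen. The scripts were tested on simulated data. Figures used matplotlib 3.10.9 in Python 3.11.15.

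The methods state 4 independent biological replicates, but the labels do not say that a number marks one animal or culture. The main test blocked on that number. Its p-values for the RNP thus measure the spread that remains between these samples once differences between replicate numbers are taken out. Deviations from the group mean of same-numbered samples had correlations of 0.595, 0.075, 0.624 and 0.041 over all genes and of 0.756, 0.717, 0.728 and 0.719 over 9668 genes with a mean log2 CPM above 2, against at most 0.398 and 0.137 between samples of different numbers. Over all genes 2 of the pairs were thus under 0.1 and below that maximum. Samples of a group differed by more than sampling noise (chi-square over its degrees of freedom at least 53.6).

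The members and lists were chosen with earlier results of these data known. Named genes are the 10 members, the targeted gene, the 4 genes of lowest p in each list and any called gene, and the 5 genes most like the members' mean (mean log2 CPM above 2), of which 1 is not reported here; *Eif2ak3*, *Atf4*, *Ddit3* and genes overlapping members were added.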

Additional observations from a re-analysis of the deposited data

Results flagged for a closer look

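*Atf6* after *Zc3h12a* RNP had 1 sample apart from the other 3, replicate 2, at 105 CPM beside 67.0 to 72.6 CPM. The gap to the nearest sample was 0.853 of the range of the group, above Dixon's 95% critical value for 4 samples. Scrambled RNP replicate 2, also at 105 CPM beside 62.4 to 74.4 CPM, did not pass it. Of 22 groups of 4 samples examined, 1 was singled out, where chance alone gives about 1 in 20, or 1.1.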

How the results depend on the processing

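In the 10 alternatives, 0 of the 10 genes were called, and their median log2 fold change lay between -0.053 and 0.13. Without the replicate block that median was 0.00018 and 0 genes were called higher and 0 lower. The block changed no call of the 10 genes, but without it the unadjusted p by edgeR's quasi-likelihood test was higher for each of them. It was 0.560 for *Hspa5*, 0.616 for *Sdf2l1* and 0.993 for *Dnajb9*, against 0.234, 0.269 and 0.845 with the block. The intervals printed are those of the blocked model. Over all genes, DESeq2 called 8 higher and 52 lower, no low-count filter 9 and 31, limma-trend 0 and 1, RLE size factors 0 and 1, and at least 10 counts in every sample 0 and 3. Leaving out a replicate number called 0 to 80 higher and 0 to 57 lower, with 80 and 57 without replicate 2. All were 0 in the main test, and the cause was not tested. Signs of small values turned: *Pdia4* was -0.011 by DESeq2, -0.011 with RLE and -0.0055 with at least 10 counts, and *Dnajb9* was 0.017 and *Calr* 0.012 with no filter. Leaving out a replicate number gave ranges that crossed 0, from -0.095 to 0.060 for *Hsp90b1*, -0.18 to 0.016 for *Xbp1*, -0.13 to 0.022 for *Ern1*, -0.059 to 0.13 for *Atf6*, -0.064 to 0.15 for *Pdia4*, -0.11 to 0.11 for *Dnajb9*, -0.10 to 0.17 for *Herpud1* and -0.11 to 0.13 for *Calr*; it was 0.020 to 0.27 for *Hspa5* and 0.0085 to 0.37 for *Sdf2l1*. Members that differed between replicate numbers, 7 in the main test, were 2 with RLE and 1 to 5 without a replicate number, while the share of all genes went from 28.0% to 15.8% and to 9.62% to 19.3%. With 4 pairs, true changes anywhere within the intervals printed remain possible under the blocked model.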
